A study of Mus musculus with 4 samples.

Results

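The collagen genes are the genes that encode the chains of the collagen proteins, and their RNA levels were read in mesothelial cells freshly taken from the peritoneal cavity of the mouse. All genes whose symbol is Col, a type number, the letter a and a chain number were taken from the deposited table, which gave 44 collagen genes of 48425 genes in all. No measured value entered that choice. They were grouped as fibrillar (11 genes), basement membrane (8 genes), beaded (6 genes) and other collagens (19 genes). The series holds 1 group of 4 C57BL/6 mice aged 10 weeks, with no treatment or mutation labelled and 1 library per animal, and the design text counts them as animals. Each cavity was rinsed and then filled with trypsin and EDTA for 20 min at 37 °C, and the cells that came off were sorted as CD45-, podoplanin+ and GPM6a+. Ribosomal RNA was removed before the libraries were made. The labels give no sex, batch or second group, so there is no treated or mutant cell to set these values against.

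Collagens are proteins, most of them secreted, in which chains wind around each other into a triple helix. A repeat with glycine as 1 of every 3 residues lets the chains pack. Fibrillar collagens form the tensile fibrils of connective tissue, type IV forms the network of basement membranes, and type VI forms beaded microfibrils at the border between them. The mesothelium is a single layer of flat, epithelial-like cells that lies on a basement membrane above a thin collagen-rich connective tissue and lines the body cavity.

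In sequence, the glycine repeat differs between the fibrillar types I, III and V, type IV and type VI, but it does not separate all the classes. Coding sequences were cut from the longest coding transcript of each gene, and runs of at least 5 triplets that each begin with a glycine codon (GG and any base) were counted. Col3a1, Col1a1 and Col1a2 have an unbroken longest run of 344, 338 and 339 triplets, and Col5a1 and Col5a2 of 338 and 339. The 6 type IV genes hold between 16 and 24 runs, and their longest are between 39 and 66 triplets. In type VI the longest run has 87 triplets in Col6a1, 87 in Col6a2 and 45 in Col6a3, and all runs together hold 96, 110 and 87 triplets. Col16a1, of the other collagens, has 17 runs with a longest of 52 triplets, within the ranges of type IV. Col15a1 and Col18a1, of the basement membrane class, have 10 and 13 runs with a longest of 30 triplets, outside them. Stretches of 30 codons are shown for chains that carry the results below, with the glycine codon that begins each triplet in capitals; the first 3 lie in the middle of a long run and the other 2 cross a break between runs.
Col3a1 codons 665 to 694: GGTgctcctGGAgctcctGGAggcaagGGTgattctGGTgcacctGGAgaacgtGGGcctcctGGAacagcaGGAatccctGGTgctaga
Col1a1 codons 660 to 689: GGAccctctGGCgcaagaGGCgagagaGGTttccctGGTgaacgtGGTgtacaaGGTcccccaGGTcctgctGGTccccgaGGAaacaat
Col1a2 codons 589 to 618: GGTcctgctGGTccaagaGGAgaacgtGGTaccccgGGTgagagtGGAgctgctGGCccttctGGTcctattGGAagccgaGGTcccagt
Col4a3 codons 834 to 863: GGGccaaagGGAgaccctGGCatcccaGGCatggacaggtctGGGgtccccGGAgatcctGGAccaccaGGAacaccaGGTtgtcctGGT
Col4a5 codons 647 to 676: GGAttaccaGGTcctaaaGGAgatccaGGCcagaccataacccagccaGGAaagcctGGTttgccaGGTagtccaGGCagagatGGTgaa
In the first 3 the capitals recur every 9 bases without a gap, whereas in Col4a3 and Col4a5 the spacing is lost once and then resumes.

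**Figure D1:**
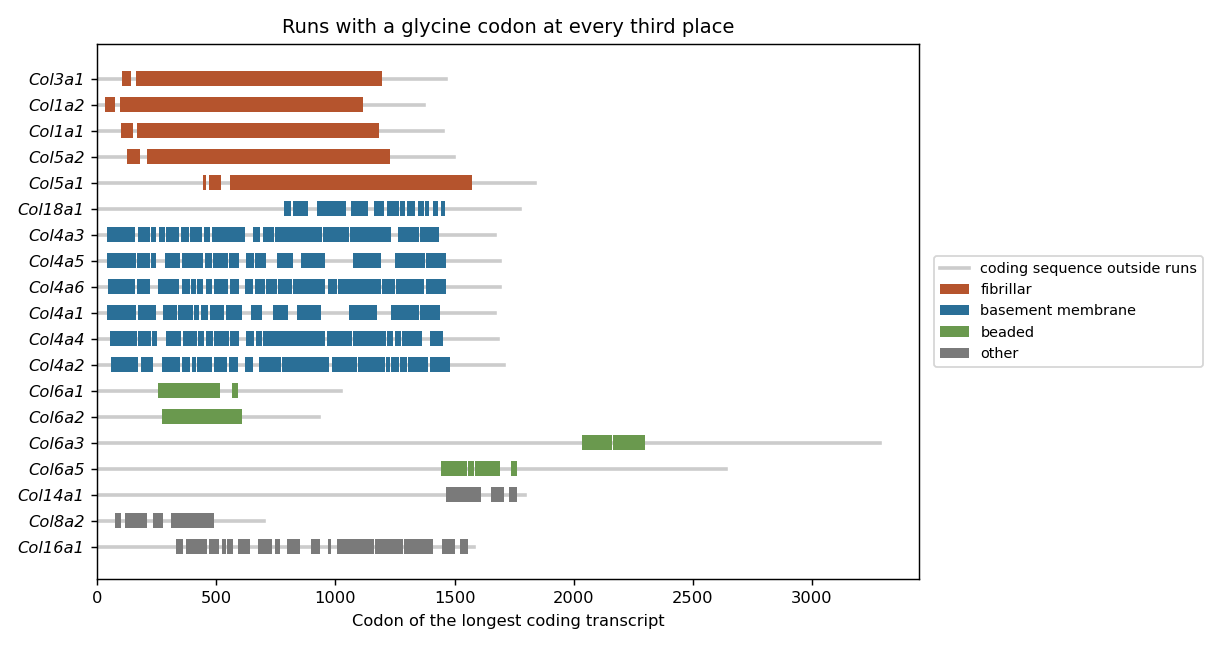
Runs of triplets that each begin with a glycine codon (coloured by class) along the coding sequence (grey, in codons) of the 19 collagen genes with a mean of at least 10 CPM. The fibrillar genes carry 1 long block and 1 or 2 short ones, the type IV genes 16 to 24 short ones, and Col6a3 2 short ones in a coding sequence of 3284 codons.

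Levels are given as counts-per-million (CPM), the estimated count of a gene over the sum of its library, and each gene was tested for a level above 1 CPM. Of the 44 collagen genes, 23 passed (52.3%), beside 24.7% of all genes in the table (edgeR's quasi-likelihood test, one-sided, adjusted p below 0.05 over all genes). The same number, 23, passed in DESeq2, where 53.1% of the 22601 genes with an adjusted p passed, in limma (23.7% of all genes) and against 2 CPM in edgeR (22.7%). The DESeq2 share leaves out genes without a count, while the 52.3% keeps the 9 collagen genes without one, so these 2 shares have unlike bases. The highest adjusted p among the 23 was 9.88e-06, for Col6a6. By class, 6 of 11 fibrillar, 8 of 8 basement membrane, 5 of 6 beaded and 4 of 19 other collagen genes passed. Of the 21 that did not pass, 0 had an unadjusted p under 0.05 and 0 were called by limma with voom weights. A mean of at least 10 CPM was reached by 19 collagen genes (43.2%), beside 18.2% of all genes. Among the 44 genes 3 averaged at least 1000 CPM, beside 129 in the whole table.

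Collagen RNA took 0.591%, 0.891%, 0.807% and 0.533% of the counts in animals 1 to 4. Their Wilson 95% intervals are 0.584 to 0.598, 0.882 to 0.899, 0.799 to 0.815 and 0.526 to 0.540%, and none of them overlap. The libraries held 4569578, 4371817, 4554370 and 4090224 estimated counts. For a gene without a count the limit set by 3 counts is 0.657, 0.686, 0.659 and 0.733 CPM in animals 1 to 4, or 0.171 CPM for the 4 together. These intervals and limits describe counting error alone and take each count as a separate molecule. Reads that carry no molecular identifier can be copies of one molecule, and the intervals would then be too narrow.

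The label of the cells was checked against marker lists, read beside the 24.7% of all genes called. All 14 mesothelial markers passed 1 CPM, led by Upk3b, Krt19 and Msln at 4135, 2300 and 2257 CPM, and their summed level lay between 17077 and 19127 CPM. Pdpn and Gpm6a on that list, and Ptprc (CD45) on the leukocyte list, encode the proteins used for sorting. Their levels are therefore no check of the label. Of 12 fibroblast markers other than collagens 11 passed (9 by limma, without Fap and Postn), and the list summed to 11691, 16671, 14510 and 11921 CPM in animals 1 to 4, most of it Dcn; without Dcn it summed to 730, 1173, 803 and 530 CPM. Of the smooth muscle and pericyte markers 5 of 10 passed (Lmod1 and Notch3 at 0, summed level 110 to 228 CPM), of the blood endothelial markers 2 of 8 (25.0%, near the share of all genes; 1 by limma, without Tek; Cdh5, Emcn and Erg at 0, 35.6 to 69.6 CPM), and of the leukocyte markers 1 of 8 (Itgam at 0, 12.9 to 21.9 CPM). Of the adipocyte markers 2 of 4 passed (Adipoq at 0, 18.9 to 43.5 CPM), and of the cartilage and bone markers 1 of 6 (Sox9, 0 by limma; Acan, Runx2, Sp7, Ibsp and Bglap at 0, 0.630 to 9.92 CPM). Of the skeletal muscle markers 0 of 5 passed (Ckm and Myh4 at 0, 1.61 to 4.08 CPM), with 0 at an unadjusted p under 0.05 in edgeR and 1 called by limma.

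The fibrillar collagens made most of the collagen RNA, 70.9 ± 5.33% of it (SD, n = 4). Col3a1, the single chain of type III collagen of pliable tissues (chr1:45311538-45349706, plus strand), had 2121, 3942, 2965 and 1936 CPM in animals 1 to 4 (2741 ± 917 CPM, SD, n = 4). It held 38.8% of all collagen counts and ranked 33 of all genes by mean CPM, a scale on which long genes collect more counts. Col1a2, the second chain of type I collagen (chr6:4504814-4541544, plus), had 991, 1358, 1506 and 711 CPM. Col1a1, the first chain of type I collagen, the main collagen of dermis and bone (chr11:94936224-94953042, plus), had 810, 1304, 1400 and 646 CPM. All 3 genes were high in animals 2 and 3 and low in animals 1 and 4, with no overlap between those pairs of animals. The fibroblast markers did not move as one: their sum without Dcn, which is mostly Cd34 at 430, 720, 453 and 317 CPM, was highest in animal 2 and lowest in animal 4. Dcn, at 10961, 15498, 13707 and 11391 CPM, was higher in animals 2 and 3 than in animals 1 and 4. So were Cd34, Mfap5, Pdgfrb, Dpt, Postn and Pi16 (not called), and the other fibroblast markers were not. The median log2 level of that list was 4.66, 4.66, 4.71 and 4.86, highest in animal 4, and Thy1 at 31.2, 10.5, 30.4 and 33.8 CPM was lowest in animal 2. The mesothelial markers did not move as one either. Krt19 had 1749, 3120, 3091 and 1239 CPM, also high in animals 2 and 3. Krt8, Wt1, Lrrn4, Muc16, Cldn15 and Bnc1 were likewise higher in animals 2 and 3 than in animals 1 and 4. Upk3b, at 4448, 3920, 3990 and 4184 CPM, was lower in animals 2 and 3, as were Upk1b and Krt18. The other mesothelial markers did neither. The part of either list in these levels was not tested. Cd34, Dcn, Thy1, Krt19 and this split of the fibroblast and mesothelial markers were picked here after their values had been seen. In a bulk sample, fewer cells of one type and less RNA per cell cannot be told apart.

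Type V collagen starts fibrils and limits their width. Col5a2 (chr1:45374321-45503282, minus) had 84.3, 106, 83.9 and 97.8 CPM, and Col5a1 (chr2:27886425-28039514, plus) had 45.1, 28.2, 58.3 and 32.2 CPM. The sum over the type V genes was 135, 147, 150 and 138 CPM. Col5a1 was lowest in animal 2, where Col5a2 was highest, and had a highest over lowest ratio of 2.07, against 1.27 for Col5a2. Col5a3, a less common chain of type V, averaged 8.45 ± 2.75 CPM. Col27a1, a fibrillar chain known from cartilage, averaged 1.77 ± 1.32 CPM and was not called (adjusted p = 0.36 by edgeR's quasi-likelihood test). Col24a1, another minor fibrillar chain, averaged 0.938 CPM and was not called either.

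The basement membrane collagens passed without exception, although they made only 7.56 ± 2.37% of the collagen RNA (SD, n = 4). Col18a1, which carries the endostatin domain at its end (chr10:77052178-77166548, minus), had 149, 131, 174 and 211 CPM. Its relative Col15a1 had 3.20, 6.75, 12.8 and 2.89 CPM and was highest in animal 3. Type IV has 6 chains: the α1 and α2 chains of Col4a1 and Col4a2 occur in nearly all basement membranes, and the α3 to α6 chains of Col4a3 to Col4a6 in selected ones, such as that of the kidney glomerulus. All 6 type IV genes were called.

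Among the selected chains, Col4a3 (chr1:82586921-82722059, plus) had 136, 75.7, 55.0 and 98.5 CPM. Col4a5 (chrX:141475385-141689234, plus) had 74.9, 71.1, 79.4 and 62.1 CPM, and Col4a6 (chrX:141165403-141474076, minus) had 59.5, 55.5, 62.2 and 53.3 CPM. Col4a4 (chr1:82448423-82586849, minus) had 38.0, 45.5, 37.1 and 41.4 CPM. Col4a3 spread the most between animals, and Col4a4, Col4a5 and Col4a6 stayed within a highest over lowest ratio of 1.28. Of the common chains, Col4a1 (chr8:11198423-11312826, minus) had 52.0, 27.95, 60.0 and 33.7 CPM. Col4a2 (chr8:11312805-11449287, plus) had 34.1, 23.9, 22.4 and 22.9 CPM, with animal 1 above the other 3.

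To compare genes of unequal length, CPM was divided by the length of the longest coding transcript in kilobases. On that scale the sum of Col4a3, Col4a4, Col4a5 and Col4a6 was 3.04, 4.105, 2.52 and 3.83 times the sum of Col4a1 and Col4a2 in animals 1 to 4. The mean ratio was 3.375 ± 0.726 (SD, n = 4). It was 3.93 without division by length, but 1.15 with the median length of the coding transcripts, where a short annotated coding transcript lowers the median of Col4a1 to 1170 bases, against a longest transcript of 6615 bases. This ratio was chosen after the values had been seen. Col4a3 also shares 563 exonic bases with C430014B12Rik on the opposite strand (6.70 CPM), and the sources used here do not say whether the counting kept strand, so part of either level may belong to the other.

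Beaded microfibrils are built of Col6a1, Col6a2 and another, longer chain, Col6a3 or one of its relatives Col6a4, Col6a5 and Col6a6. Col6a1 (chr10:76708792-76726168, minus) had 724, 1158, 840 and 678 CPM and ranked 149 of all genes. Col6a2 (chr10:76595762-76623630, minus) had 137, 272, 224 and 144 CPM. Col6a3 (chr1:90765923-90843971, minus) had 31.7, 24.4, 70.5 and 63.5 CPM. In animal 2, Col6a1 and Col6a2 were at their highest and Col6a3 at its lowest.

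Of the other long chains, Col6a5 (chr9:105856078-105960643, minus) had 27.8, 47.2, 17.5 and 16.8 CPM, and Col6a6 averaged 4.63 ± 1.86 CPM. Col6a5 and Col6a6 share a stretch of 572 bases at 96.9% identity, so the split of reads between them is uncertain. Both were highest in animal 2. Col6a4 averaged 0.311 CPM from 6 counts, all in animal 3, and was the beaded gene that was not called. Type VI as a whole made 15.98 ± 1.26% of the collagen RNA (SD, n = 4).

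Among the other 19 collagens, 4 were called, a share near the 24.7% of all genes. Col14a1, a collagen that decorates the surface of fibrils (chr15:55307750-55520803, plus), had 301, 149, 286 and 388 CPM. It was lowest in animal 2 and highest in animal 4, unlike Col1a1, Col1a2 and Col3a1. Col8a2, a short chain of a hexagonal network best known under the corneal endothelium (chr4:126286793-126314330, plus), had 53.2, 32.6, 59.1 and 44.2 CPM. Its partner Col8a1 had 7 counts, all in animal 1. Col16a1, a fibril-associated collagen (chr4:130047840-130099283, plus), had 19.5, 19.9, 20.5 and 24.3 CPM, an even level in all 4 animals. Col12a1, the other fibril-surface collagen closest in kind to Col14a1, had 3.85, 2.22, 13.4 and 6.91 CPM.

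The rest of the family was not called. Col20a1 averaged 1.21 CPM, with 2.37 CPM in animal 3, and Col26a1, Col23a1 and Col22a1 averaged 0.764, 0.636 and 0.150 CPM. Col11a1 had 4 counts, and Col2a1, Col19a1 and Col28a1 had 1 count each. No count was found for 9 genes. These were the cartilage collagens Col9a1, Col9a2, Col9a3, Col10a1 and Col11a2, the anchoring fibril chain Col7a1, the hemidesmosome chain Col17a1, and the membrane-spanning Col13a1 and Col25a1. None of the 4 transmembrane collagens was called, and of type II, IX, X and XI genes, which build cartilage, 0 of 7 were called. Of all genes 24.7% were called, and at that share sets this small can hold no called gene.

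**Figure D2:**
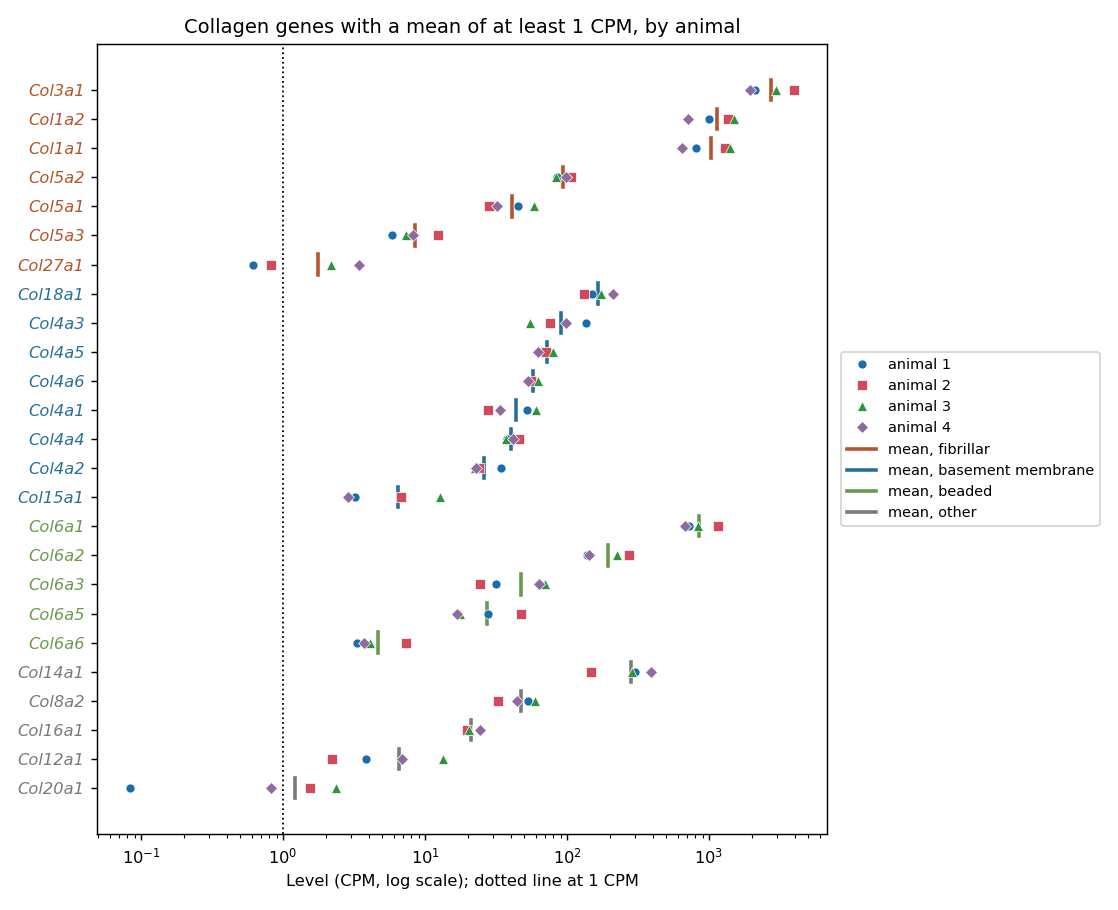
Level of the 25 collagen genes with a mean of at least 1 CPM in each of 4 animals (CPM on a log scale, markers by animal, bars at the mean, coloured by class, dotted line at 1 CPM). Col3a1 at 1936 to 3942 CPM stands to the right of every other gene, and the basement membrane genes lie mostly between 22.4 and 211 CPM.

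Ordered by mean CPM per kilobase, Col3a1 came first at 493, followed by Col1a2 at 213, Col6a1 at 207 and Col1a1 at 175. Neither Col1a2 and Col6a1 nor Col6a1 and Col1a1 differed beyond the SD of their within-animal log2 difference. The next were Col14a1 at 43.5, Col6a2 at 41.7 and Col18a1 at 29.7 CPM per kilobase, which again did not separate as neighbours. Col5a2 followed at 14.1, then Col4a5, Col8a2, Col4a3 and Col4a6 between 8.67 and 10.998, within one another's spread from neighbour to neighbour. Below them Col4a1 at 6.56 stood above Col5a1 at 4.87 in 4 of 4 animals. Col6a3, Col16a1, Col4a4, Col4a2 and Col6a5 followed between 2.94 and 4.70 CPM per kilobase, each within the spread of its neighbour.

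Chains that assemble together or replace each other were compared within each animal as log2 ratios of CPM per kilobase (0.5 CPM added first), over 13 pairs. Every pair had the same direction in 4 of 4 animals. The exact two-sided sign-flip permutation test gave p = 0.13 for each (0.13 after Benjamini-Hochberg adjustment over 13 pairs), the smallest p that 4 animals allow, so no pair could pass 0.05.

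Col1a1 lay slightly below Col1a2, with a log2 ratio of -0.30 ± 0.10 (SD, n = 4), although type I collagen is built of more α1 than α2 chains. Col3a1 lay above Col1a1 by 1.504 ± 0.239, a fold of 2.84. Col5a1 lay below Col5a2 by a log2 ratio of -1.57 ± 0.63, and Col5a3 below Col5a2 by -3.31 ± 0.28. Among type IV pairs, which share a start region, the log2 ratio was 0.66 ± 0.50 for Col4a1 over Col4a2, 1.33 ± 0.57 for Col4a3 over Col4a4 and 0.34 ± 0.06 for Col4a5 over Col4a6. The X-linked pair thus had the narrowest spread of the 3.

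Among the type VI chains, Col6a1 exceeded Col6a2 by 2.34 ± 0.21 on the log2 scale, a fold of 5.06, and Col6a3 fell below Col6a1 by a log2 ratio of -5.55 ± 0.98, which is 46.9-fold. Col15a1 over Col18a1 was -4.69 ± 1.03, Col12a1 over Col14a1 was -6.33 ± 0.77 and Col8a1 over Col8a2 was -6.29 ± 0.92. The Col8a1 ratio rests on 7 counts and on the 0.5 CPM added. Col1a1 exceeded Col4a1 by 4.72 ± 0.68, a fold of 26.3. Col11a1 and Col11a2 had 4 and 0 counts and were given no ratio. With the median in place of the longest transcript length no ratio changed sign, but several moved by more than 1.5-fold. Col3a1 over Col1a1 became 4.42, Col1a1 over Col1a2 -1.08, Col5a1 over Col5a2 -0.74, Col4a1 over Col4a2 3.16, Col4a3 over Col4a4 2.23, Col15a1 over Col18a1 -3.86, Col8a1 over Col8a2 -7.18 and Col1a1 over Col4a1 2.22. Without division by length Col6a3 over Col6a1 was -4.25 and Col12a1 over Col14a1 -5.49, and with 0.1 CPM added Col8a1 over Col8a2 was -8.10. The order of levels above shares this dependence on length, most for Col3a1, Col4a1 and Col16a1, whose median coding transcripts have 737, 1170 and 452 bases.

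**Figure D3:**
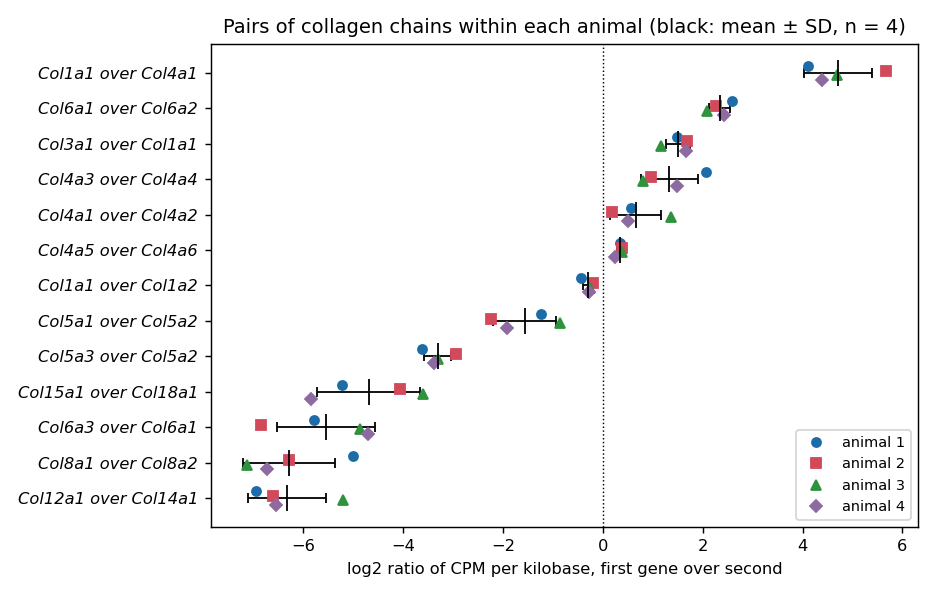
Log2 ratio of CPM per kilobase, first gene over second, for 13 pairs of collagen genes in each of 4 animals (coloured markers; black bars: mean ± SD). All 4 animals fall on the same side of 0 in every pair, from -6.33 for Col12a1 over Col14a1 to 4.72 for Col1a1 over Col4a1.

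The classes did not vary between animals alike. The fibrillar sum was 4059, 6753, 6024 and 3435 CPM in animals 1 to 4, a coefficient of variation (CV, SD over mean) of 31.1%. The basement membrane sum was 546, 437, 503 and 526 CPM, a CV of 9.36%, though its genes were highest in different animals. Single genes of that class had CVs from 6.90% for Col4a6 to 71.7% for Col15a1, with 37.8% for Col4a3 and 34.7% for Col4a1. The beaded sum was 924, 1510, 1157 and 906 CPM, and the sum of the other collagens 380, 205, 386 and 465 CPM. Fibrillar and beaded collagens were highest in animal 2, where basement membrane and other collagens were lowest. With effective library sizes from edgeR's TMM scaling, the fibrillar CV was 28.3% and the basement membrane CV 12.2%. The difference between the CVs was not tested, since each class gives 1 value per animal. Of the collagen RNA, the fibrillar genes held 64.4 to 75.8% and the basement membrane genes 4.91 to 9.87%.

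**Figure D4:**
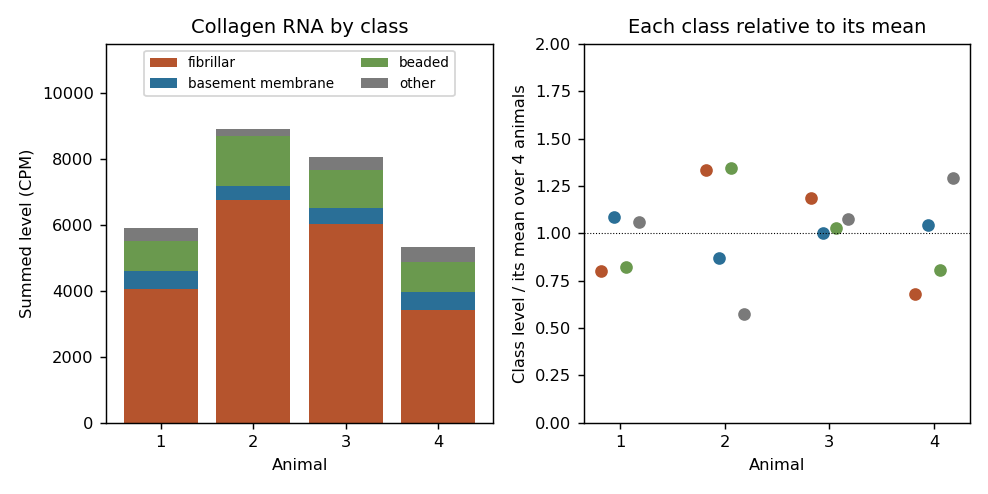
Left, summed level of each collagen class per animal (CPM, stacked bars); right, each class sum over its own mean in 4 animals (points). Fibrillar and beaded sums peak in animal 2 at 6753 and 1510 CPM, while the basement membrane sum stays between 437 and 546 CPM.

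Gene by gene, the 19 collagen genes of at least 10 CPM had a median CV of 31.5% between animals, beside 22.9% for 8773 other genes of at least 10 CPM. It ranged from 6.90% for Col4a6 to 51.9% for Col6a5, and counting error alone would give 0.910 to 10.4%. For 13 of the 19 the CV lay above the median of the other genes within 2-fold of its level. Animal 2 held the highest value of 6 and the lowest value of 6 of these genes, and animal 3 the highest of 8. Without animal 2 the median was 23.4% for the collagen genes and 21.02% for the other genes, the narrowest gap when any animal was left out. Without animal 4 the gap also narrowed, to 27.1% beside 22.1%.

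Several collagen genes lie side by side in the genome (GRCm38, GENCODE M21). The type IV genes stand head to head in 3 pairs: Col4a4 and Col4a3 with 71 bases between them, Col4a1 and Col4a2 with an overlap of 22 bases, and Col4a6 and Col4a5 with 1308 bases between them. Reads from those 22 bases could belong to either gene. Col3a1 and Col5a2 end towards each other 24614 bases apart, and Col6a2 and Col6a1 follow each other on one strand with 85161 bases between them. Levels within these neighbourhoods were unequal, with Col3a1 at 493 and Col5a2 at 14.1 CPM per kilobase, and Col6a1 at 207 and Col6a2 at 41.7 CPM per kilobase.

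The 300 bases around a gene's start (250 before and 50 after) were taken from RefSeq on GRCm38.p6, where 38 windows matched 35 of the 44 genes. Windows are shown for Col3a1 and Col1a2, whose levels were both high in animals 2 and 3, and for the start regions of type IV pairs on chromosomes 1 and 8. The Col4a4 window also covers the annotated start of Col4a3, and the Col4a2 window that of Col4a1. Each is printed 5′ to 3′ on the strand of the gene. Capitals mark CCAAT, the usual binding motif of the factor NF-Y. They also mark the TATA box motif, spelled TATAAA, and the GC box of Sp1-like factors, spelled GGGCGG, all on either strand.
Col3a1, chr1:45311288-45311587, plus strand: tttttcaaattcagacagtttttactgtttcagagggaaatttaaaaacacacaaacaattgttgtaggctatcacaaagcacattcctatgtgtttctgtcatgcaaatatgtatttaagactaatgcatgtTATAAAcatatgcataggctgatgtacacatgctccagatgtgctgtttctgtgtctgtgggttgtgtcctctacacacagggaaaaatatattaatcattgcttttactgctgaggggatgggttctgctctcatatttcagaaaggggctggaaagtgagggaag
Col1a2, chr6:4505368-4505667, plus strand: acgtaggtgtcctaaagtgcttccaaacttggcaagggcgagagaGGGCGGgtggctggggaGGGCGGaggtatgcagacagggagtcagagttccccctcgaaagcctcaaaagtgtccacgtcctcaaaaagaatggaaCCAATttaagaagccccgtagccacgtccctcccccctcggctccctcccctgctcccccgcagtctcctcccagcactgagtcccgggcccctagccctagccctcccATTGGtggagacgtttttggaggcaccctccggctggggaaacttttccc
Col4a4, chr1:82586800-82587099, minus strand: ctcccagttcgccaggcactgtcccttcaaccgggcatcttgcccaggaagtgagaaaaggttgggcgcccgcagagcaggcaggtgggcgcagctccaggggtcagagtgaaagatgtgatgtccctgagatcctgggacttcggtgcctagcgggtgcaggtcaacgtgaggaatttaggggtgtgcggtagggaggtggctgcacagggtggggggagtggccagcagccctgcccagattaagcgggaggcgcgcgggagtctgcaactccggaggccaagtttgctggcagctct
Col4a2, chr8:11312555-11312854, plus strand: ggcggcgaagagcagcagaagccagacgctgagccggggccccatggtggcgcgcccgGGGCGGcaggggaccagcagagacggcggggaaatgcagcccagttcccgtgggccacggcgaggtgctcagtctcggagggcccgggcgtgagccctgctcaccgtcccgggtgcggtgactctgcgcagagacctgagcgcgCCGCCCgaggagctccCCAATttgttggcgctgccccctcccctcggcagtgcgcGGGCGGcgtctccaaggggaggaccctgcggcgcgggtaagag
The Col3a1 window holds 1 TATAAA and neither other motif, and the Col1a2 window holds 2 CCAAT and 2 GGGCGG. The Col4a2 window holds 1 CCAAT and 3 GGGCGG, and the Col4a4 window none of the 3 motifs. Over all collagen windows CCAAT was in 13 of 38, TATAAA in 5 and GGGCGG in 23; over 32851 RefSeq windows the shares were 37.4%, 13.6% and 35.7%. A match describes these letters and is not a binding site.

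The genes that make, export and handle collagen were read in the same test, in which 24.7% of all genes were called. In prolyl and lysyl modification 12 of 15 genes (80.0%) were called, led by P4hb and P4ha1, subunits of the prolyl 4-hydroxylase, at 706 ± 161 and 121 ± 23.3 CPM, and Ppib, a prolyl isomerase, at 698 ± 62.1 CPM (SD, n = 4). P3h3, a member of the prolyl 3-hydroxylase family, was the lowest called at 18.8 CPM, and P4ha3, P3h2 and Colgalt2 had no count after rounding. In folding and export 12 of 12 were called. Serpinh1, the collagen chaperone HSP47, had 2026, 3184, 2248 and 1852 CPM in animals 1 to 4 and was highest in animal 2, as Col3a1 was. Pdia3, a disulfide isomerase, averaged 1911 ± 352 CPM and Hspa5, the chaperone BiP, 1787 ± 543 CPM. Both were also highest in animal 2, at 2432 and 2526 CPM. Fkbp14, the lowest called, averaged 23.3 CPM and was highest in animal 3.

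Of the genes for propeptide removal, 4 of 10 (40.0%) were called: Pcolce, which enhances that step, at 950 ± 168 CPM, the proteinases Adamts2 at 87.8 ± 16.2 CPM and Bmp1 at 58.3 ± 24.2 CPM, and Tll1, a relative of Bmp1, at 5.82 ± 3.49 CPM (SD, n = 4). Tll2, Mep1a and Mep1b were at 0. All 6 crosslinking genes were called, from Tgm2, a transglutaminase, at 380 ± 110 CPM through the lysyl oxidases Loxl1 at 137 ± 32.3 and Loxl2 at 39.4 ± 10.4 CPM to Loxl4 at 6.34 ± 1.53 CPM.

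In the list of fibril-regulating genes 13 of 15 (86.7%) were called. Dcn, the proteoglycan decorin, led it at 12889 ± 2116 CPM, ahead of Sparc, a collagen-binding matrix protein, at 5621 ± 1310 CPM and Ogn, the proteoglycan osteoglycin, at 679 ± 166 CPM (SD, n = 4). The 44 collagen genes together summed to 7054 ± 1707 CPM, fewer counts than Dcn alone held. Thbs2, a thrombospondin, was the lowest called at 4.14 ± 3.67 CPM, and Kera, the corneal keratocan, was at 0. The Thbs2 call was lost by limma (adjusted p = 0.938), against a level of 2 CPM in edgeR (0.132) and without animal 3 (0.121); over its alternatives the adjusted p ran from 2.93e-06 to 0.938.

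Of the collagen receptors 7 of 13 (53.8%) were called, led by Itgb1, the integrin β1 chain, at 157 ± 36.4 CPM and the discoidin domain receptors Ddr1 and Ddr2 at 87.8 ± 15.9 and 78.7 ± 29.6 CPM (SD, n = 4). Itga1, the α1 partner of Itgb1, was the lowest called at 3.61 ± 2.83 CPM. Its call was lost by limma (adjusted p = 0.108), against 2 CPM in edgeR (0.192) and without animal 4 (0.119), and over its alternatives the adjusted p ran from 0.000129 to 0.192. Lair1 and Oscar, receptors of immune and bone cells, were at 0. Of the collagen-degrading enzymes 2 of 7 were called (28.6%, near the 24.7% of all genes), the membrane-bound Mmp14 at 68.5 ± 25.4 CPM and the lysosomal Ctsk at 33.0 ± 7.15 CPM. Mmp2, the gelatinase that Mmp14 activates, averaged 1.40 ± 1.30 CPM and was not called, and the collagenases Mmp1a, Mmp8 and Mmp13 were at 0.

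**Figure D5:**
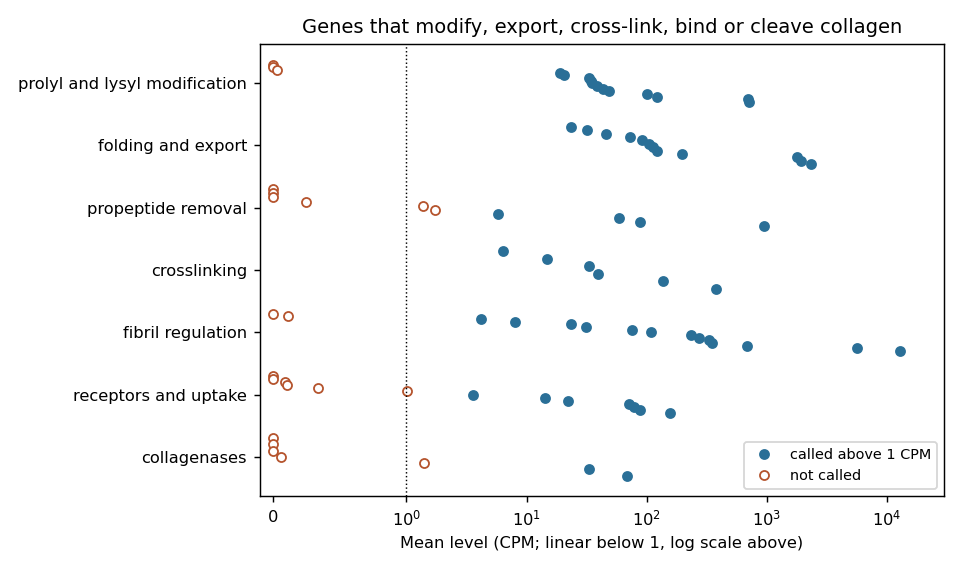
Mean level over 4 animals of the genes that modify, fold, cleave, cross-link, bind or degrade collagen, by list (CPM, linear below 1 and log above, dotted line at 1 CPM; filled: called, open: not called). Folding and crosslinking genes were called without exception, and 5 of 7 collagenases were not called.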

How the data were processed

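RNA of sorted peritoneal mesothelial cells was read from a table of 48425 genes by symbol, with 1 column of estimated counts for each of 4 animals, as deposited by the authors. The submitters' processing notes list the build GRCm38.p5 and the tools limma 3.38.3, edgeR 3.24.3 and kallisto 0.43.1 without saying what each was used for. How transcripts were summed to genes, and the strand setting, are not given in the sources used here. The unit was read from the deposited values, which are mostly not whole. Estimated counts grow with transcript length and depend on how reads were split between similar transcripts.

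CPM is the value over the column sum. Library totals ran from 4090224 to 4569578. For the test, estimated counts were rounded and fitted without a filter in edgeR 4.0.16 (R 4.3.3) with an intercept only; the quasi-likelihood F statistic against 1 CPM was computed from fitted and null deviances, one-sided. P-values were adjusted by Benjamini-Hochberg over all 48425 genes, and 0.05 was the threshold. The procedure was tested on simulated data with a common spread for all genes. It called 0, 121 and 199 of 200 genes at true levels of 1, 2 and 4 CPM. A gene at 2 CPM or less can therefore be missed. Pairs were compared by an exact sign-flip permutation test over animals. Lengths, positions and coding sequences came from GENCODE M21 (GRCm38) and start windows from RefSeq. Similar transcripts were found with blastn 2.17.0 (at least 95% identity over 100 bases).

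Alternatives were TMM and DESeq2 1.42.0 size factors, a filter of 10 counts, limma 3.58.1 with voom weights, a DESeq2 Wald test, a level of 2 CPM, other lengths, pseudocounts and denominators, and leaving out each animal. All collagen genes were named; those of at least 10 CPM are given per animal. Of each other list, the 3 highest, the lowest called and those without a count are named. The members and lists were chosen with earlier results of these data known. Mia2 is listed in the table as Ctage5.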

Additional observations from a re-analysis of the deposited data

Results flagged for a closer look

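In 70 sets of 4 animals, 3 had 1 animal apart from the other 3 by more than Dixon's 95% limit, and chance sets about 1 in 20 apart. Col4a2 was at 34.1 CPM in animal 1, with the other 3 animals between 22.4 and 23.9 CPM. P4ha1 was at 155 CPM in animal 4, with the others between 106 and 114 CPM. Itgb1 was at 211 CPM in animal 3, with the others between 133 and 144 CPM.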

How the results depend on the processing

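The count of 23 called collagen genes, and the counts by class, were the same under all alternatives run. No pair changed direction. The median CV of the collagen genes of at least 10 CPM was 27.8% with TMM effective library sizes, beside 22.4% for the other genes, and 23.4 to 29.3% when 1 animal was left out. The type IV ratio was 1.15 with the median coding transcript length, as set out above, and 3.13 to 3.66 when 1 animal was left out. Of the named pathway genes, the Thbs2 and Itga1 calls were lost as given above. Of the markers, Fap, Tek and Sox9 lost their calls by limma, against 2 CPM and without 1 animal (Fap without animal 3 or 4, Tek without animal 4, Sox9 without animal 2), and Postn by limma alone. Lyz2 was gained with the filter of 10 counts, and Mylpf with that filter and by limma. The mean collagen share of counts ran from 0.702 to 0.782% over its denominators and from 0.644 to 0.763% when 1 animal was left out. Because 4 animals allow no p below 0.13 (0.25 for 3 animals), the pair directions are descriptions. At these depths a gene under 0.171 CPM over the group cannot be told from 0. No paired analysis was possible because the series holds 1 group and no groups can be matched; the gene pairs were compared within animals.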

Other observations

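Genes that bind collagen fibrils did not share 1 order of animals. Those named here were picked after their values had been seen. Fmod, the proteoglycan fibromodulin, had 593, 162, 282 and 369 CPM in animals 1 to 4, lowest in animal 2, as Col14a1 was at 149 CPM. Ogn was also lowest in animal 2, at 447 CPM, with 773, 673 and 822 CPM in animals 1, 3 and 4. Fn1, the matrix protein fibronectin, had 63.4, 398, 315 and 160 CPM and Bgn, the proteoglycan biglycan, 171, 443, 236 and 238 CPM, both highest in animal 2; Fn1 was also high in animal 3, as Col1a1 was. Each gene has 1 value per animal, so these orders were not tested.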
